A study of Mus musculus with 18 samples.

Results

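The cytosolic ribosomal proteins were followed here in mouse T cells that had been cultured with small extracellular vesicles (sEVs) taken from leukemic or healthy spleens. They were chosen by name only: every probe set whose platform symbol is Rpsa or begins with Rpl, Rps or Rplp followed by a number, leaving out the S6 kinases (Rps6k) and pseudogenes marked -ps. The naming pattern matched 75 probe sets, and 68 with 68 different symbols remained of the 22206 on the array, 41 with large subunit (Rpl) and 27 with small subunit (Rps) names. No measured value entered this naming rule, though the group was chosen with earlier results of these data known. At least 2 of the 68 carry a ribosomal name without being subunits. They are Rps19bp1, which encodes a protein that binds Rps19, and Rps23rg1, a mouse retrogene of Rps23.

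Each array held RNA of 1 T-cell subset that had been sorted by flow cytometry. The spleens came from Foxp3 YFP/Cre mice, whose Foxp3-expressing cells carry the YFP reporter. Treg were collected as YFP+ cells, beside CD4+ Tconv and CD8+ T cells, and all were kept for 24 h with IL2 at 10 ng/ml and sEVs, for which the labels give 50 ug/ml. LME-sEVs came from spleens of TCL1 mice (leukemia microenvironment, a transgenic model of chronic lymphocytic leukemia driven by TCL1 in B cells), and HCME-sEVs came from spleens of healthy control mice. There were 18 Clariom S arrays in 6 groups, with 3 arrays for LME and 3 for HCME in each subset. The labels do not give the age of the mice, the methods state young adult mice for the study in general, and the methods scale the sEV amount to what a spleen of that kind contains, which leaves it unsettled whether both treatments had the same dose. The labels do not say that the 3 arrays of a group came from separate animals or cultures, so the p-values below speak only of the spread among these arrays, which may be technical.

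A ribosome is built from a large and a small subunit, each made of ribosomal RNA and many proteins that are needed in nearly equal amounts. The mRNAs of these proteins begin with a short stretch of pyrimidines, the 5′ terminal oligopyrimidine (TOP) tract, through which mTOR and the binding protein Larp1 control their translation together. T cells that are activated raise ribosome production before they divide, and free Rpl5 and Rpl11 can bind Mdm2 and stabilise p53 when assembly fails. Array signal follows the amount of mRNA and not its translation. In bulk RNA, fewer cells that express a gene and less RNA per cell cannot be told apart.

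The annotated transcription starts of members are shown because the pyrimidine tract is the sequence feature that the group is known for. RefSeq (GRCm38.p6) gave 300 bases around the start for 55 of the 68 genes, with 66 starts. Each line holds 30 bases, 15 before the annotated start and 15 from it on. Capitals mark the longest run of at least 5 pyrimidines that begins with C within 10 bases of the start. Bases further before the start were not searched, so a stretch that crosses this limit is cut there, as in Rpl7a. The first 4 genes (Rpl15, Rps9, Rpl14 and Rpl9) are among those whose signal was low on single arrays in the results below, and the other 4 (Rps18, Rpl7a, Rpl4 and Rpl41) lay between -0.20 and 0.12 of the other arrays on both arrays singled out below. They were picked to show starts with and without a run in either set.
Rpl15: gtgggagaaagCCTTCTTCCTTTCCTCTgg
Rps9: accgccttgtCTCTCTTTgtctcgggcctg
Rpl14: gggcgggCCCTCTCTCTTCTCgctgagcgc
Rpl9: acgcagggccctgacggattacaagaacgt
Rps18: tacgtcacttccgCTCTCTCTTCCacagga
Rpl7a: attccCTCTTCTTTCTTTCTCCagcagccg
Rpl4: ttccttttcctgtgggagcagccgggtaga
Rpl41: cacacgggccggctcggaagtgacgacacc
These stretches lie at chr14:18270972-18271001 on the minus strand (Rpl15), chr7:3704026-3704055 on the plus strand (Rps9), chr9:120571502-120571531 on the plus strand (Rpl14) and chr5:65391417-65391446 on the minus strand (Rpl9). Those of the other 4 lie at chr17:33955651-33955680 on the minus strand (Rps18), chr2:26910792-26910821 on the plus strand (Rpl7a), chr9:64173372-64173401 on the plus strand (Rpl4) and chr10:128549154-128549183 on the minus strand (Rpl41). Rpl9, Rpl4 and Rpl41 had no such run at the annotated start. Over all matched members, 33 of 55 (60%) had such a run at 1 or more of their starts, against 34.4% of the 27025 genes in the table. Among the 15 matched members that lay more than 0.5 below the other arrays on the Treg array described below, 8 had a run (53.3%), and among the other 40 it was 25 (62.5%).

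Within the 300 bases, searched on both strands with each motif counted by itself even where matches overlapped, CCGGAAG (the core bound by ETS factors such as GABP) was present in 38.2% of the members, against 9.93% of all genes. CGCGAGA was present in 18.2% of the members and 2.92% of all genes, and ATGGCGG (part of the YY1 site) in 14.5% of the members and 4.69% of all genes. GGGCGG (the GC box) was present in 56.4% of the members and 38.2% of all genes, and TATAAA in 12.7% of the members and 15.7% of all genes. These matches describe the letters in the window only.

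The values are log2 signals as deposited, and a difference is always LME minus HCME within a subset. The members' mean signals ran from 6.44 to 19.33 in CD4+ Tconv, from 6.56 to 18.06 in CD8+ T cells and from 6.01 to 18.73 in Treg. Background was taken as the 95th percentile of the mean signals of 1427 olfactory, vomeronasal and trace amine receptor probe sets, which T cells are not known to use, and was 8.80, 8.08 and 7.62 in these subsets. Of the 68 members, 61, 64 and 63 lay above it. The paralogs Rpl3l (known from muscle) and Rpl10l and Rpl39l (known from testis), and Rps4l, lay below it in all 3 subsets, Rpl7l1 lay below it in CD4+ Tconv and Treg, and Rplp0 and Rps19bp1 in CD4+ Tconv. A mean signal above 17 was found for 31 members in CD4+ Tconv, 31 in CD8+ T cells and 34 in Treg, where only 69, 42 and 67 other probe sets lay as high.

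Markers of CD8+ T cells and Treg were high on the arrays of their own subsets, and those of CD4+ T cells lay near background. Cd8a averaged 13.68 on LME arrays and 13.52 on HCME arrays of CD8+ T cells, and between 7.28 and 7.76 in the groups of the other subsets. Ikzf2, a transcription factor of Treg, averaged 11.41 on LME arrays and 11.29 on HCME arrays of Treg, and between 7.52 and 8.02 in the groups of the other subsets. Over the 7 measured Treg markers the array means of Treg were 10.69 to 11.25 on LME arrays and 9.63 to 10.80 on HCME arrays. The median difference was 0.23 and none was called. Without overlap 2 were higher (Ctla4 by 2.44 and Tnfrsf18 by 1.84), against 4.72% of all probe sets. The part of the Treg markers in the Treg results below was not tested. Foxp3 was not analysed here. The array means of the 2 CD4 T cell markers (Cd4 and Zbtb7b) were 8.475 to 8.86 on LME arrays and 8.23 to 8.665 on HCME arrays of CD4+ Tconv. The background of that subset was 8.80. In Treg they were 8.32 to 8.725 and 7.89 to 8.105, and in CD8+ T cells 7.065 to 7.565 and 7.15 to 7.27. The means of 13 B cell markers lay between 6.85 and 7.48 on every array of the 3 subsets, below background.

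Single arrays stood apart and carried much of what follows. Over all probe sets, Treg HCME array 3 correlated with the other arrays of its subset at 0.926 on average, where those had 0.951 to 0.955. On it 34 of the 68 members (50%) had their lowest value of the subset, against 17.4% of all probe sets and 41.6% of the probe sets of similar level (for each member, the 200 other probe sets nearest to it in mean signal). Here 12 members lay more than 1 log2 unit below the median of the other 5 arrays (17.6%), as did 14.2% of the probe sets of similar level. In CD4+ Tconv, 29 members (42.6%) were lowest on LME array 1, against 39.3% of the probe sets of similar level, and 21 (30.9%) on LME array 2, against 33.6%, so these shares lay near those of their neighbours. On LME array 2, 26 members were highest (38.2%), against 25% of the probe sets of similar level. LME array 2 had a mean correlation of 0.960 with the other CD4+ Tconv arrays, where these had 0.966 to 0.978.

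**Figure D1:**
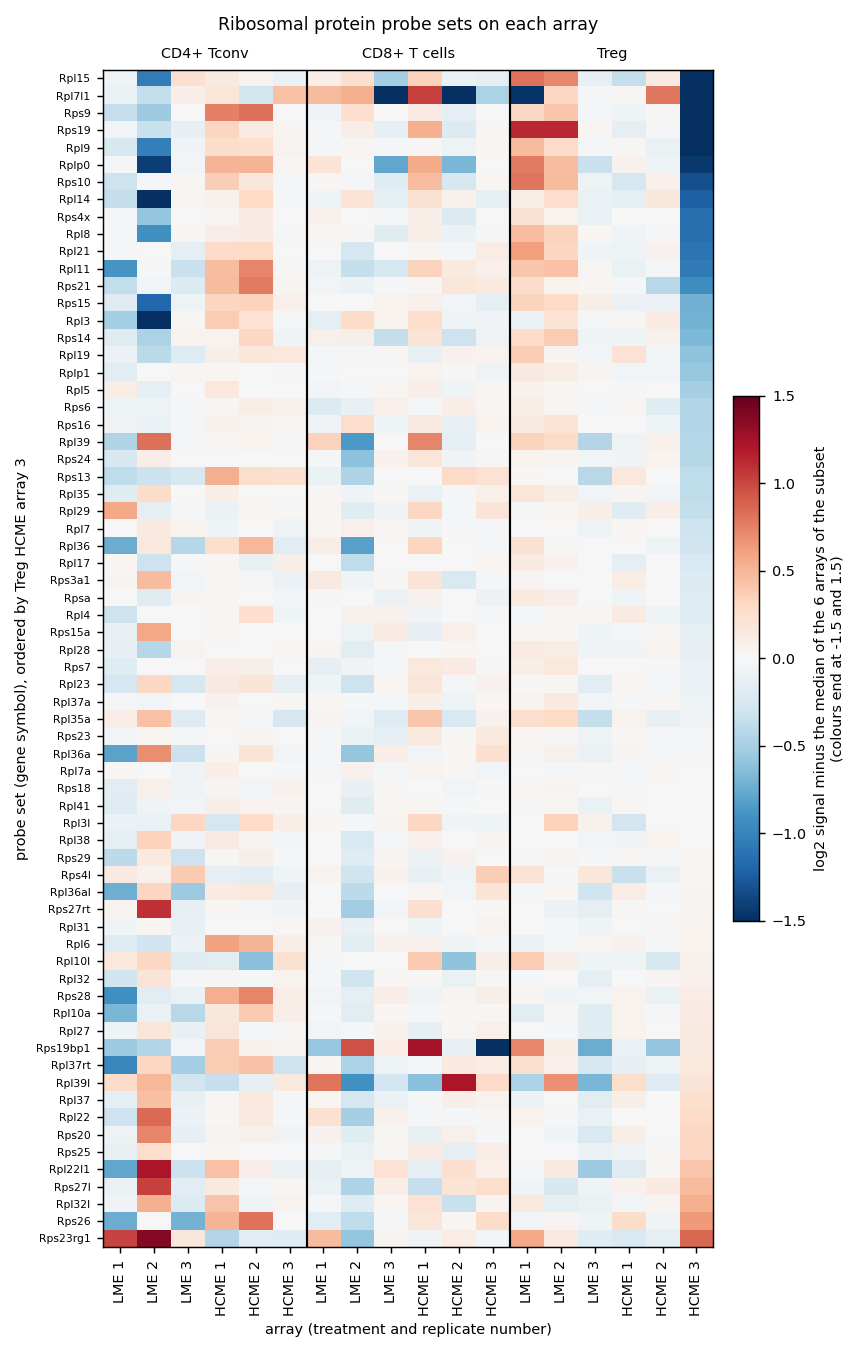
Log2 signal of each of the 68 ribosomal protein probe sets (rows) on each of the 18 arrays (columns, LME left of HCME in each subset), minus the median of the 6 arrays of that subset. Blue marks lower and red higher signal, and the dark blue block at the top right is Treg HCME array 3, on which 12 members lay more than 1 unit below the median of the other arrays.

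These 2 arrays, of different subsets and treatments, were low in many of the same members. On CD4+ Tconv LME array 2, 11 members lay more than 0.5 below the median of the other 5 arrays of the subset. On Treg HCME array 3 there were 20, and 10 members were on both lists, which is 90.9% of the first and 50% of the second. These 10 were Rpl3, Rpl8, Rpl9, Rpl14, Rpl15, Rplp0, Rps4x, Rps9, Rps14 and Rps15, and they were picked out here for their values. Across the 68 members the deviations on the 2 arrays had r = 0.59 and rho = 0.66. Across the 763 other probe sets with a mean signal above 13 the same measure was r = 0.28 and rho = 0.35, with 148 probe sets on both lists (53.2% of the 278 and 56.7% of the 261), and across all probe sets r = 0.20 and rho = 0.17. Probe sets of one array share its RNA and its normalization, so these values describe the arrays and carry no p.

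**Figure D2:**
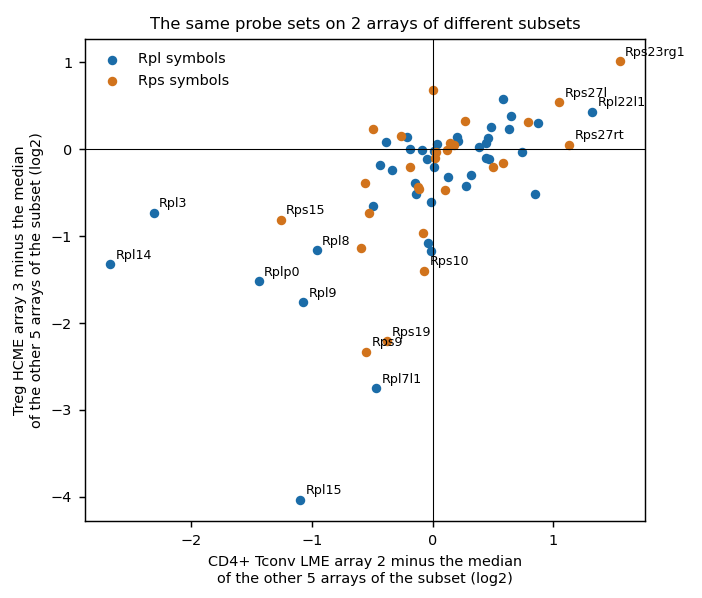
Deviation of each ribosomal protein probe set on CD4+ Tconv LME array 2 (x axis) and on Treg HCME array 3 (y axis), each as log2 signal minus the median of the other 5 arrays of its subset. Rpl15, Rpl14, Rpl3, Rpl9 and Rplp0 lie far to the lower left, and Rps23rg1, Rpl22l1, Rps27rt and Rps27l lie to the right.

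Rpl14, a protein of the large subunit, had signals of 15.15, 12.85 and 15.52 on LME arrays and 15.57, 15.80 and 15.49 on HCME arrays of CD4+ Tconv. Its low value is LME array 2 alone, and the difference was -1.11 ± 0.54 (SE, limma adjusted p = 0.292) with this array and -0.29 ± 0.21 (0.470) without it. Rpl3, which lies beside the peptidyl transferase centre, had 15.65, 13.87 and 16.18 on LME arrays and 16.54, 16.38 and 16.15 on HCME arrays, with a difference of -1.12 ± 0.46 (limma adjusted p = 0.226), and -0.44 ± 0.23 (0.295) without LME array 2. On the same array other members were high. Rpl22, which is needed for the development of αβ T cells in mice, had 17.30, 18.45 and 17.52 on LME arrays and 17.63, 17.74 and 17.58 on HCME arrays. Its paralog Rpl22l1 had 13.49, 15.50 and 13.95 on LME arrays and 14.71, 14.37 and 14.18 on HCME arrays, so that the group means differed by 0.11 for Rpl22 and by -0.11 for Rpl22l1. Rpl14 and Rpl3 were named after their values were seen.

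In CD4+ Tconv no ribosomal protein passed the test of LME against HCME. Limma called 0 of the 68 at an adjusted p below 0.05, where 235 of all 22206 probe sets (1.06%) and 4.77% of the probe sets of similar level were called. The lowest adjusted p of a member was 0.0846, for Rps23rg1. At an unadjusted p below 0.05 there were 14 members (20.6%), against 18.8% of all probe sets and 30.1% of the probe sets of similar level. The member means leaned downward, with 49 of 68 lower under LME and a median of -0.11, where the median of all probe sets was 0.07. In 17 members every LME array lay below every HCME array (25%), against 11.8% of all probe sets and 29.6% of those of similar level. In 2 members every LME array lay above (2.94%), against 11.6% of all probe sets and 6.96% of those of similar level. Probe sets of similar level had a median difference of -0.25, and the median member lay 0.14 above its own neighbours.

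**Figure D3:**
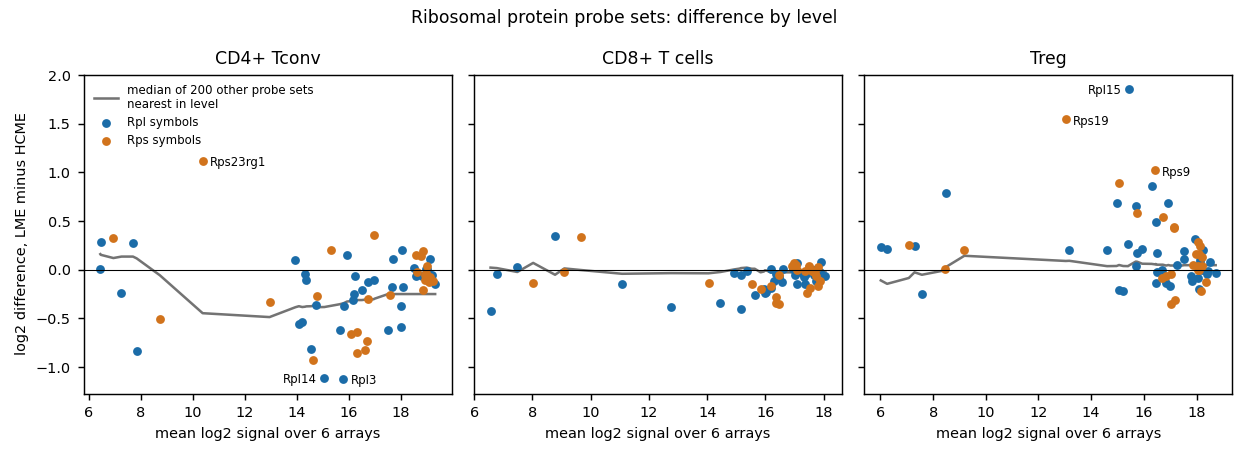
Log2 difference, LME minus HCME (y axis), against mean log2 signal over the 6 arrays (x axis) for each ribosomal protein probe set in CD4+ Tconv, CD8+ T cells and Treg, with Rpl symbols in blue and Rps symbols in orange. The grey line joins the median difference of the 200 other probe sets nearest in level to each member, which runs below 0 for strong signals in CD4+ Tconv (median -0.25) and near 0 in CD8+ T cells (median -0.03).

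The range of signal moved with the treatment in these CD4+ Tconv arrays. The receptor probe sets had array medians of 6.98 to 7.13 on LME arrays and 6.65 to 6.83 on HCME arrays, and the upper decile of all signals was 10.05 to 10.21 on LME arrays and 10.32 to 10.51 on HCME arrays. Their part in the member differences was not tested. After quantile normalization of the 6 arrays, 10 members lay below without overlap (14.7%), against 10.8% of all probe sets and 19.4% of those of similar level, and 5 lay above (7.35%), against 9.49% and 11.1%. The median member then lay 0.0015 above its neighbours. The neighbours of the strongest members lay lower than these, by a median of 2.54 units for the 31 members above 17, since so few other probe sets reach that level. With 50 neighbours in place of 200 the median was 0.0017.

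The members that separated downward in CD4+ Tconv by the largest amounts came from both subunits. Rps28, of the small subunit, had 15.37, 16.13 and 16.19 on LME arrays and 16.84, 17.02 and 16.39 on HCME arrays, a difference of -0.85 ± 0.27 (SE, limma adjusted p = 0.132). Rpl11, of the 5S ribonucleoprotein, had 13.68, 14.54 and 14.23 on LME arrays and 15.02, 15.29 and 14.58 on HCME arrays, a difference of -0.81 ± 0.27 (0.147). For both the lowest value was LME array 1, and the gap between the groups was smaller than the range within either. Probe sets of similar level had median differences of -0.31 for Rps28 and -0.375 for Rpl11. After quantile normalization Rps28 and Rpl11 differed by -0.60 and -0.46. Rpl5, which binds 5S RNA together with Rpl11, had 18.92, 18.67 and 18.81 on LME arrays and 18.97, 18.81 and 18.81 on HCME arrays, and the groups overlapped.

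Rps15, in the head of the small subunit near the decoding site, had 16.62, 15.63 and 16.73 on LME arrays and 17.13, 17.15 and 16.89 on HCME arrays, a difference of -0.73 ± 0.28 (limma adjusted p = 0.200), which was -0.38 ± 0.20 (0.30) without LME array 2. Rps13 had 15.70, 15.76 and 15.84 on LME arrays and 16.62, 16.34 and 16.32 on HCME arrays, a difference of -0.66 ± 0.19 (0.112). Here the LME arrays lay close together and apart from the HCME arrays as deposited. Probe sets of similar level had median differences of -0.31 for Rps15 and -0.32 for Rps13. After quantile normalization Rps15 and Rps13 differed by -0.53 and -0.40. Rplp0, the base of the P stalk that recruits elongation factors, had 7.89, 6.5 and 7.87 on LME arrays and 8.42, 8.42 and 7.94 on HCME arrays, all below background. Its difference was -0.84 ± 0.34 (limma adjusted p = 0.224), and -0.38 without LME array 2. After quantile normalization Rplp0 differed by -0.89. Its stalk partner Rplp1 had 18.91, 19.08 and 19.12 on LME arrays and 19.11, 19.09 and 19.07 on HCME arrays. The other 12 that separated downward had differences from -0.64 (Rps21) to -0.10 (Rps16). Rps6, the subunit that S6 kinases phosphorylate, was among them with 19.00, 19.00 and 19.04 on LME arrays against 19.11, 19.18 and 19.14 on HCME arrays, a difference of -0.13 ± 0.18 (limma adjusted p = 0.727).

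Rps26 stood close to these but its highest LME and lowest HCME values were equal. It sits at the mRNA exit channel of the small subunit and had 13.90, 14.65 and 13.94 on LME arrays and 15.16, 15.47 and 14.65 on HCME arrays, with a difference of -0.93 ± 0.27 (limma adjusted p = 0.117). Without LME array 2 the difference was -1.17 ± 0.25, and Rps26 was the 1 member called in that fit (limma adjusted p = 0.0416). Leaving out LME array 2 also raised the number that separated downward to 34 of 68. Among these 5 arrays 17% of all probe sets did so. The share of probe sets of similar level was not taken in that fit, so the count was not compared with it. With every array of the subset that share was 29.6%, against 11.8% of all probe sets. Without LME array 2 the median member lay 0.0937 above its neighbours of similar level.

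The 2 members that separated upward in CD4+ Tconv were a retrogene and a paralog. Rps23rg1 had 11.10, 11.46 and 10.26 on LME arrays and 9.65, 9.91 and 9.90 on HCME arrays, a difference of 1.12 ± 0.28 (limma adjusted p = 0.0846). This was the largest positive difference of a member in the subset, and it was called without LME array 3 (1.46, adjusted p = 0.048) and after dim probe sets were left out (0.0483). Rps23 itself had 18.58, 18.65 and 18.61 on LME arrays and 18.63, 18.67 and 18.62 on HCME arrays. Rps4l, a paralog of the X-linked Rps4x, had 7.05, 6.98 and 7.30 on LME arrays and 6.76, 6.74 and 6.84 on HCME arrays, all below background.

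**Figure D4:**
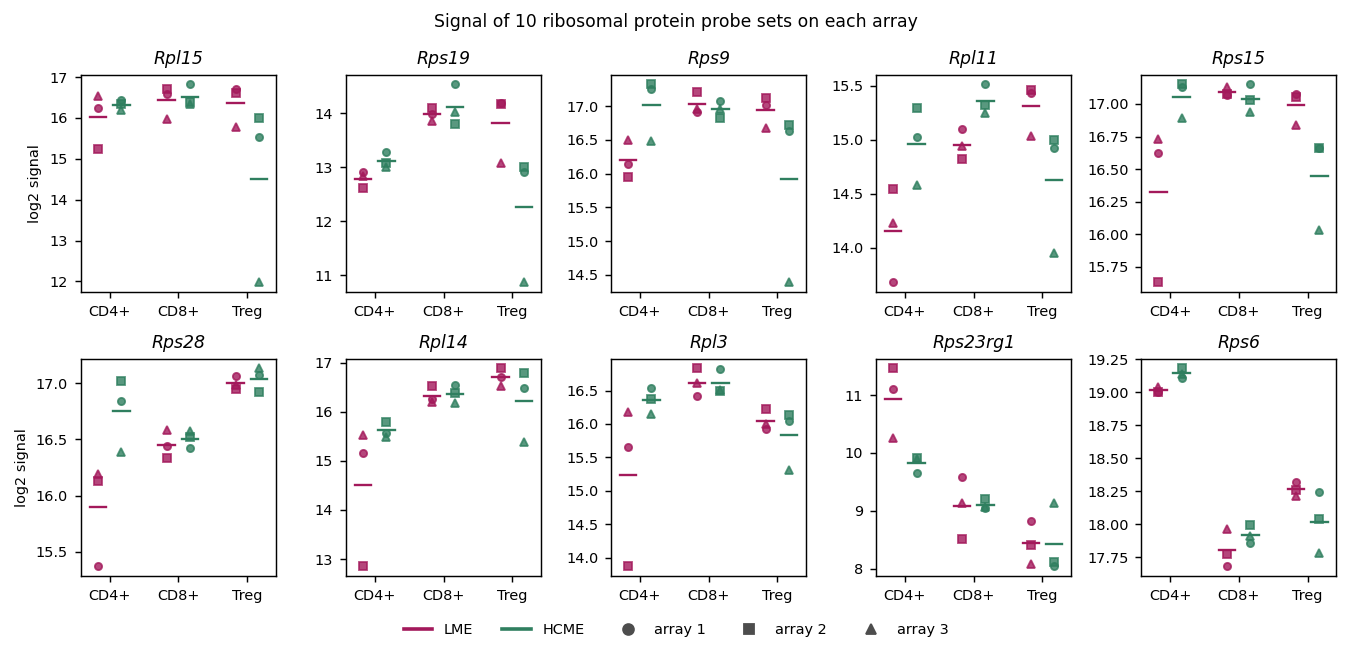
Log2 signal of 10 ribosomal protein probe sets on each array (points, with a marker shape for each array number) and the group mean of 3 arrays (lines), with LME left of HCME in each subset. Rpl15, Rps19 and Rps9 have 1 low point on Treg HCME array 3, Rpl14 and Rpl3 have 1 low point on CD4+ Tconv LME array 2, and the axes differ between panels.

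In CD8+ T cells no member passed the test. Limma called 0 of the 68, as it called 0% of all probe sets. At an unadjusted p below 0.05 there was 1 member, Rpl11 (1.47%), against 4.22% of all probe sets. The differences ran from -0.43 to 0.35 with a median of -0.055, and the median of all probe sets was -0.0033. Of the 68 means 53 lay lower under LME (77.9%), against 50.2% of all probe sets, and the median member minus its neighbours was -0.0375. In 6 members every LME array lay below every HCME array (8.82%), against 4.25% of all probe sets and 6.18% of those of similar level, and in 1 every LME array lay above (1.47%), against 4.35%. Of the 6, 5 had Rps and 1 had Rpl names. After quantile normalization 3 lay below (4.41%) and 1 above (1.47%), against 4.61% of all probe sets for each direction.

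Rpl11 had 15.10, 14.82 and 14.94 on LME arrays and 15.51, 15.32 and 15.25 on HCME arrays of CD8+ T cells, a difference of -0.41 ± 0.17 (SE, limma adjusted p = 0.998). Rps26 had 16.21, 15.99 and 16.34 on LME arrays and 16.55, 16.39 and 16.64 on HCME arrays, a difference of -0.35 ± 0.17 with the same adjusted p, and its gap between groups was narrow. Rps27rt, a retrogene of Rps27, differed by -0.28 ± 0.20, and Rps23 by -0.19 ± 0.15, with the same adjusted p. Rps21 and Rps7 differed by -0.16 each. Rpl7, which had 17.93, 17.98 and 17.93 on LME arrays and 17.84, 17.88 and 17.87 on HCME arrays, was the 1 member that separated upward, by 0.08 ± 0.14. LME array 2 held the lowest value of 32 members (47.1%), against 24.9% of all probe sets and 31.75% of those of similar level. HCME array 1 held the highest value of 30 (44.1%), against 18.6% and 23.0%. Without LME array 2 the median member minus its neighbours was -0.0075.

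In Treg the members leaned the other way, and this lean was smaller without HCME array 3 and depended on the scaling. Limma called 0 of the 68 and 0% of all probe sets, and the lowest adjusted p of a member was 0.80. At an unadjusted p below 0.05 there was 1 member, Rps19 (1.47%), against 6.12% of all probe sets. The median difference was 0.105, with 44 of 68 means higher under LME, where the median of all probe sets was -0.0567. In 8 members every LME array lay above every HCME array (11.8%), against 4.72% of all probe sets and 12.1% of those of similar level, and in 3 every LME array lay below (4.41%), against 7.53%. After quantile normalization the counts were equal, with 12 above (17.6%), against 5.61% of all probe sets and 11.3% of those of similar level, and 12 below (17.6%), against 6.77% and 11.9%. Without HCME array 3 the median difference was 0.035 and the median member lay 0.0208 above its neighbours, against 0.0567 with it. In the same fit 9 members separated upward among 5 arrays (all probe sets 11.1%) and 3 downward (11.8%).

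Rpl15, a large subunit protein whose human gene can be mutated in Diamond-Blackfan anaemia, had the widest difference. Its signals were 16.71, 16.61 and 15.77 on LME arrays and 15.53, 16.01 and 11.98 on HCME arrays of Treg, so the groups overlapped and HCME array 3 lay far below the rest. The difference was 1.86 ± 1.01 (SE, limma adjusted p = 0.816) with this array and 0.59 ± 0.36 (0.814) without it. Rps9, at the mRNA entry of the small subunit, had 17.01, 17.12 and 16.68 on LME arrays and 16.63, 16.72 and 14.39 on HCME arrays, with 1.02 ± 0.61 (0.823) and 0.26 ± 0.23 (0.866) without the array. Rpl9 had 16.95, 16.76 and 16.46 on LME arrays and 16.49, 16.38 and 14.73 on HCME arrays, with 0.86 ± 0.48 (0.820) and 0.29 ± 0.24 (0.857) without it. These 3 were named after their values were seen. Of the 68 members 11 differed by more than 0.5, all upward. Without HCME array 3, Rps19 and Rpl15 lay over 0.5 higher and Rpl7l1 lay lower (-0.80).

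Rps19, the gene most often mutated in human Diamond-Blackfan anaemia, had 14.18, 14.17 and 13.08 on LME arrays and 12.91, 13.01 and 10.87 on HCME arrays of Treg, a difference of 1.55 ± 0.62 (limma adjusted p = 0.80), which was 0.85 ± 0.39 (0.778) without HCME array 3. LME array 3 was nearly as low as HCME arrays 1 and 2. Rpl8 had 17.46, 17.33 and 17.03 on LME arrays and 16.93, 16.96 and 15.87 on HCME arrays, with 0.69 ± 0.34 (0.806) and 0.33 ± 0.23 (0.835) without the array. Rpl11 had 15.43, 15.46 and 15.03 on LME arrays and 14.92, 15 and 13.95 on HCME arrays, with 0.68 ± 0.33 (0.80) and 0.35 ± 0.23 (0.831) without it. Rps21 and Rps15 differed by 0.58 ± 0.28 and 0.54 ± 0.25 (0.80 each), and Rplp1, Rpl36 and Rps7 by 0.31, 0.21 and 0.13.

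The 3 members that separated downward in Treg had smaller differences. Rps27l, a paralog of Rps27 that p53 is known to induce, had 16.90, 16.73 and 16.89 on LME arrays and 17.03, 17.10 and 17.44 on HCME arrays, a difference of -0.35 ± 0.21 (limma adjusted p = 0.824). Rpl37 differed by -0.19 ± 0.20 (0.872) and Rpl27 by -0.13 ± 0.19 (0.916). For Rps27l the highest value was HCME array 3, and without it the difference was -0.23 ± 0.20 (0.868).

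Markers of cell types were read on the same arrays. In Treg the mean of 9 T cell markers was 13.21 to 13.84 on LME arrays and 12.28 to 13.52 on HCME arrays, with none called. Without overlap 1 was higher, against 4.72% of all probe sets. Their median difference was 0.61, and 0.56 against probe sets of similar level. The means of the 14 myeloid markers were 6.23 to 6.70 on LME arrays and 6.55 to 6.89 on HCME arrays, below background. In CD4+ Tconv the T cell marker means were 11.84 to 12.26 on LME arrays and 12.54 to 12.94 on HCME arrays, with none called. Without overlap 5 of 9 were lower, against 11.8% of all probe sets. Their median difference was -0.68, and -0.29 against probe sets of similar level. The part of these markers in the member differences was not tested.

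Wide differences lay mostly among the members of lower signal. In CD4+ Tconv 15 of the 37 members at or below 17 differed by more than 0.5 in either direction, and 2 of the 31 above 17 did. In Treg these were 11 of 34 at or below 17 and 0 of 34 above, and in CD8+ T cells 0 on either side. The median replicate SD above 17 was 0.16, 0.10 and 0.11 in CD4+ Tconv, CD8+ T cells and Treg, and at or below 17 it was 0.35, 0.19 and 0.33. Signals within 1 unit of the array's highest value were found for 13 to 25 members on the CD4+ Tconv arrays, for 1 to 6 on the Treg arrays and for 0 members on the CD8+ T cell arrays. Whether signal near the top of the scale still follows the amount of RNA was not tested. Rpl7a is an example of a flat member, with 18.20, 18.16 and 18.21 on LME arrays and 18.17, 18.22 and 18.18 on HCME arrays of Treg.

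Large and small subunit names had similar medians. As deposited, more of the Rps names separated downward in CD4+ Tconv and CD8+ T cells, and this depended on the scaling. In CD4+ Tconv every LME array lay below every HCME array for 8 of 41 Rpl and 9 of 27 Rps names, and in CD8+ T cells for 1 of 41 and 5 of 27. All probe sets had 11.8% and 4.25% in these subsets, and those of similar level 29.6% and 6.18%. After quantile normalization it was 6 Rpl and 4 Rps names in CD4+ Tconv (all probe sets 10.8%, similar level 19.4%). In CD8+ T cells it was then 1 and 2 (4.61% and 4.52%). In Treg every LME array lay above for 4 of 41 Rpl and 4 of 27 Rps names (all probe sets 4.72%, similar level 12.1%). After quantile normalization it was 4 and 8 (5.61% and 11.3%). The median difference in CD4+ Tconv was -0.11 for Rpl and -0.12 for Rps names, in CD8+ T cells -0.06 and -0.05, and in Treg 0.10 and 0.13. Against neighbours of similar level the medians were 0.13 for Rpl and 0.15 for Rps names in CD4+ Tconv, -0.035 and -0.04 in CD8+ T cells, and 0.0567 for both in Treg. The array means also moved together, as Treg HCME array 3 had the lowest mean of its subset for both (15.27 for Rpl and 15.93 for Rps names). No test was made of these counts and medians, since members of one array share its RNA.

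The effects of LME-sEVs on the members were compared between subsets as differences of effects over all 18 arrays. No member was called at a limma adjusted p below 0.05 in Treg minus CD8, where 2 of all probe sets were (0.00901%), in CD4 minus CD8, where 0 were (0%), or in Treg minus CD4, where 3 were (0.0135%). At an unadjusted p below 0.05 there were 5, 5 and 19 of the 68 members, and 1675, 1540 and 3389 of all 22206 probe sets. Shares of probe sets of similar level were not taken for these contrasts. The lowest adjusted p of a member was 0.526, 0.700 and 0.127. In 4 members every LME array lay below every HCME array in CD4+ Tconv and above in Treg (5.88%), as in 222 of all probe sets (1%). The share of probe sets of similar level was not taken for this pattern. Those separated downward in CD4+ Tconv in 29.6% and upward in Treg in 12.1%, against 11.8% and 4.72% of all probe sets. The 4 members were Rpl11, Rps15, Rps19 and Rps21. Their effects in Treg minus CD4 differed by 1.5 ± 0.40, 1.27 ± 0.36, 1.88 ± 0.62 and 1.22 ± 0.32 (SE), with limma adjusted p of 0.132, 0.137, 0.193 and 0.127. Rpl11 and Rps21 also separated downward in CD8+ T cells. No member separated in the same direction in all 3 subsets.

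Of the paralog pairs, Rpl22 and Rpl22l1 in CD4+ Tconv are given above. In CD8+ T cells their differences were -0.06 and -0.05, and in Treg -0.12 and -0.22. Rpl39, near the exit of the peptide tunnel, differed by 0.10 in CD4+ Tconv, -0.38 in CD8+ T cells and 0.20 in Treg, and Rpl36a and Rpl36al differed by -0.21 and -0.37, -0.24 and -0.20, and -0.0067 and -0.14 in the same order. Rpl3 differed by 0.01 in CD8+ T cells and 0.22 in Treg, Rps4x by -0.26, 0.04 and 0.44 in CD4+ Tconv, CD8+ T cells and Treg, and Rpl7 by 0.11 in CD4+ Tconv and 0.08 in Treg. In CD8+ T cells Rpl7l1 had the widest replicate spread of a member, with 9.72, 9.78 and 7.35 on LME arrays and 10.27, 6.76 and 8.77 on HCME arrays of CD8+ T cells, and the groups overlapped. Rps27 and Rpl10 were not analysed here, and many ribosomal protein genes have processed copies in the genome, so a probe set may also take up RNA from a near-identical copy.

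Fau, whose protein ends in the small subunit protein Rps30 and whose name falls outside the pattern, had 13.56, 13.55 and 12.96 on LME arrays and 12.35, 12.64 and 11.87 on HCME arrays of Treg. These groups did not overlap, and the difference was 1.07 ± 0.29 (SE, limma adjusted p = 0.80). In CD4+ Tconv it had 12.13, 12.48 and 12.50 on LME arrays and 12.71, 12.73 and 12.46 on HCME arrays, and the groups overlapped. In CD8+ T cells it differed by -0.15. Rps6 differed by -0.12 in CD8+ T cells and 0.24 in Treg, and Rpl5 by -0.04 and 0.19.

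Levels were also compared between Treg and CD8+ T cells over 12 arrays, which depends on whether the authors normalized the subsets together. The deposited values of all probe sets had a median difference of -0.49 (Treg minus CD8+), which quantile normalization brought to 0.04, so member differences are given under both. As deposited, 2 members (2.94%) were higher in Treg by over 1 log2 unit at a limma adjusted p below 0.05. Of all probe sets 2.39% were, and of those of similar level 11.4%. In the other direction 3 members (4.41%) were lower, against 21.3% and 8.15%. Rplp0 had Treg arrays from 7.11 to 9.34 (mean 8.47) and CD8+ arrays from 10.42 to 11.75 (mean 11.08), which did not overlap. Its difference was -2.61 ± 0.33 (SE, limma adjusted p = 0.000113), and -1.73 ± 0.36 (0.0041) after quantile normalization. Rps27l had Treg arrays from 16.73 to 17.44 (mean 17.02) and CD8+ arrays from 15.43 to 16.15 (mean 15.83), with a difference of 1.18 ± 0.16 (0.000143), and 0.96 ± 0.18 (0.002) after quantile normalization, just under the limit of 1.

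Rps19, with Treg arrays from 10.87 to 14.18 and CD8+ arrays from 13.79 to 14.53, was called as deposited (-1.01 ± 0.36, limma adjusted p = 0.0359). It was not called after quantile normalization (-0.53 ± 0.32, 0.220) or without Treg HCME array 3, Treg LME array 3, any 1 of the LME arrays of CD8+ T cells, or HCME array 1 or 3 of CD8+ T cells. Rpl10l and Rpl39l had mean signals below background in both subsets. For Rpl39l the Treg arrays ran from 6.93 to 8.29 (mean 7.57), around the Treg background of 7.62. Rpl10l differed by -1.23 as deposited and by -0.72 after quantile normalization, where it was under the limit of 1, and Rpl39l by 1.01 and 1.58, called under both. As deposited, Rpl39l lost its call without Treg LME array 2, Treg HCME array 1, 2 or 3, CD8+ LME array 2 or 3, or CD8+ HCME array 1 or 3. Rpl39 was called after quantile normalization (1.02 ± 0.27, 0.0141) but not as deposited (0.42 ± 0.25, 0.176). At an adjusted p below 0.05 without a limit on size, 32 members were higher in Treg and 9 lower as deposited, and 8 higher and 10 lower after quantile normalization. Without this limit the shares of all probe sets and of those of similar level were not taken. The member counts were therefore not compared with them. The members' median was 0.31 as deposited and 0.03 after quantile normalization, and by these the median member lay 0.11 above and 0.03 below its neighbours of similar level.

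**Figure D5:**
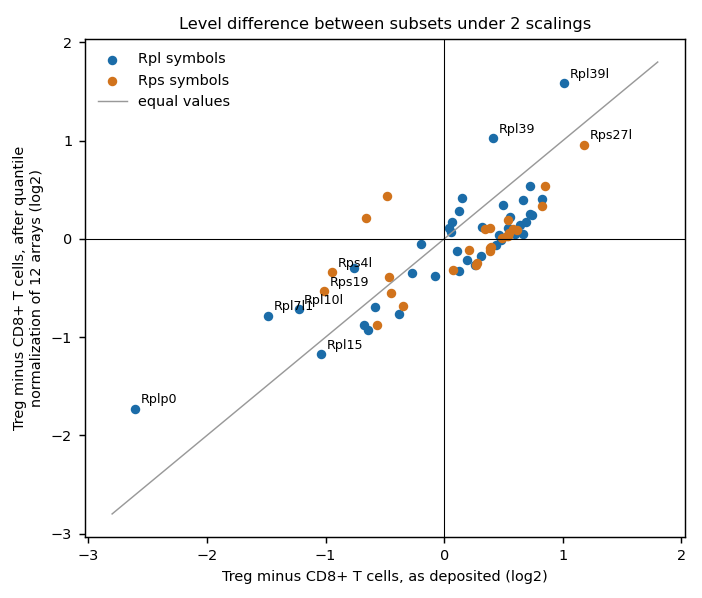
Difference in log2 signal between Treg and CD8+ T cells (Treg minus CD8+) for each ribosomal protein probe set, as deposited (x axis) and after quantile normalization of the 12 arrays (y axis), with a grey line of equal values. Rplp0 lies lowest under both (-2.61 and -1.73), and most members lie right of 0 on the x axis but near 0 on the y axis (medians 0.31 and 0.03).

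Genes that work around the ribosome were read from lists chosen for their role. Of 18 measured mRNAs other than ribosomal proteins that carry TOP tracts, none was called in any subset. In CD4+ Tconv their median difference was -0.38, with 5 lower and 1 higher without overlap. Of all probe sets there, 11.8% were lower and 11.6% higher. Eef1d, Eef1g, Eif3k and Eif4b had the widest differences (-0.97, -0.75, -0.69 and -0.57). The median of this list was 0.06 in CD8+ T cells and 0.20 in Treg. Of 46 measured ribosome biogenesis genes, none was called in any subset. The medians were -0.22 in CD4+ Tconv, -0.085 in CD8+ T cells and -0.0267 in Treg. In CD4+ Tconv 9 were lower and 4 higher without overlap, against 11.8% and 11.6% of all probe sets. The widest differences were Nop16 at -0.97, Polr1b at -0.91, Sbds at -0.79 and Nhp2 at -0.73.

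Of 19 measured genes for the translation of TOP mRNAs and its control, Eif4e, which binds the mRNA cap, was the 1 called in CD4+ Tconv. It averaged 9.65 ± 0.24 on LME arrays and 11.34 ± 0.27 on HCME arrays (SD, n = 3 each), a difference of -1.68 ± 0.22 (SE, limma adjusted p = 0.0330). The call was lost without LME array 1 (adjusted p = 0.0954), HCME array 1 (0.228) or HCME array 2 (0.223), with all 18 arrays in the fit (0.169) and in the methods' t-test (0.280). The list's median there was -0.48, with 13 of 19 lower and 0 higher without overlap, where 11.8% of all probe sets were lower. Of the 13, Mtor, Rptor, Tsc2, Eif4ebp1, Eif4ebp2, Myc and Sesn2 lay below the background of 8.80 in both groups. Max (-1.23), Larp4 (-0.78) and Myc (-0.78) were not called. In CD8+ T cells and Treg the medians were -0.04 and -0.04, with none called. Of 16 measured genes of the p53 response, none was called, and the medians were -0.03, 0.0067 and 0.10 in CD4+ Tconv, CD8+ T cells and Treg. In CD4+ Tconv the widest were Sesn1 (-0.92), Zmat3 (0.70), Plk2 (0.65) and Mdm4 (-0.45).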

How the data were processed

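Data of 18 Clariom S mouse arrays were used. The authors made the log2 signal of each probe set with the Transcriptome Analysis Console and deposited 1 value per array. How these were normalized, whether over the 3 subsets together, and the genome build are not given in the sources used here. For RNA labelling, 1 kit is named in the labels and another in the methods. Groups and replicate numbers came from the sample titles, and no 2 arrays were identical (0 of 153 pairs). Precision is limited by the number of arrays. A platform symbol was known for 19572 of 22206 probe sets.

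LME minus HCME was estimated separately for each subset from its 6 arrays, using lmFit and eBayes of limma 3.58.1 (R 4.3.3). Differences of effects used all 18 arrays. P-values were adjusted by Benjamini-Hochberg over all 22206 probe sets and called at 0.05. The study's further limit of an absolute log2 difference of 1 was used for levels. For similar level, each member was set against the median of the 200 other probe sets nearest in mean signal. The step was tested on simulated data.

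Alternatives were quantile, loess and median scaling, a filter on dim probe sets, other variance models, the replicate block, the methods' t-test, other numbers of neighbours and leaving out each array. The members, lists and rules were chosen with earlier results of these data known. The signal limits of 17 and 13, the size of 0.5, the motifs, the printed starts, the arrays singled out and members named outside the rule were chosen after values were seen. Named in each subset were called members, filled up to 5 in each direction by those with non-overlapping groups and the largest difference. Also named were paralog pairs, the P stalk, Rpl5, Rpl11, Rps6, Rpsa, Fau and up to 4 genes of each list. Rpsa differed by -0.03, -0.02 and 0.16 in CD4+ Tconv, CD8+ T cells and Treg.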

Additional observations from a re-analysis of the deposited data

How the results depend on the processing

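With 3 arrays in a group a member had to differ by far more than its spread to pass, and the count of 0 called members in CD8+ T cells and Treg stayed 0 under every normalization, filter, variance model and left-out array that was run. The methods' t-test gave 0 members in each subset after Benjamini-Hochberg, with 10, 5 and 0 members at an unadjusted p below 0.05 in CD4+ Tconv, CD8+ T cells and Treg. In CD4+ Tconv 1 member was called after leaving out dim probe sets (Rps23rg1), with array weights (Rps26), and when LME array 2 (Rps26) or LME array 3 (Rps23rg1) was left out, so the count ran from 0 to 1 over left-out arrays. The count over all probe sets in CD4+ Tconv was 235 as deposited, 533 with median centring, 423 with the filter, 915 with array weights, 30 with quantile normalization, 36 with cyclic loess, 49 with trend and robust, 12 with all 18 arrays in the fit, 1 by the methods' t-test and from 0 to 542 over left-out arrays (542 when LME array 2 was left out, 70 for LME array 3, and 0 for LME array 1, HCME array 1 or HCME array 2). In Treg it was 0 as deposited and 28 with all 18 arrays.

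The deviations of same-numbered LME and HCME arrays had correlations from -0.10 to 0.14. These cannot show whether same-numbered arrays shared an animal or culture, which the labels do not say. With the replicate block 0 members were called in each subset, 2 of all probe sets were called in CD4+ Tconv (Eif4e had a limma adjusted p of 0.0531), and for Treg minus CD8 levels 4 members were called.

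The median of members minus probe sets of similar level in CD4+ Tconv was 0.1358 as deposited, 0.0015 with quantile normalization, 0.0715 with cyclic loess, 0.0017 with 50 neighbours and 0.2383 with 1000, and 0.0937 to 0.1783 over left-out arrays. In CD8+ T cells it was -0.0375, and -0.0546 to -0.0075 over left-out arrays. In Treg it was 0.0567, with 0.1094 after quantile normalization, 0.12 with 50 neighbours and 0.0208 to 0.0912 over left-out arrays. The counts without overlap were added after seeing the data. Over left-out arrays they were set against all probe sets only, with no share for those of similar level. With quantile normalization 10 were lower and 5 higher in CD4+ Tconv (17 and 2 as deposited), 3 lower and 1 higher in CD8+ T cells (6 and 1), and 12 lower and 12 higher in Treg (3 and 8). Over left-out arrays, where separation of 5 arrays is easier, they were 17 to 34 lower (34 without LME array 2, 27 without HCME array 3) and 2 to 6 higher (6 without LME array 3) in CD4+ Tconv, where all probe sets had 14.1 to 18.3% and 15.4 to 21.8%. They were 6 to 16 lower and 1 to 3 higher in CD8+ T cells (all probe sets 7.69 to 9.81% and 8.17 to 11.7%), and 3 to 10 lower and 9 to 28 higher in Treg (28 without LME array 3, 19 without HCME array 2), where all probe sets had 11.3 to 16.1% and 7.83 to 11.1%. The effects of LME differed between subsets for 0 members also with the arrays of each pair alone and with quantile normalization over 18 arrays. For Treg minus CD8 levels 5 members were called as deposited. The count over all members was 3 with quantile normalization (Rplp0, Rpl39l and Rpl39, the last not called as deposited). It was 3 with LME arrays only and 3 to 6 over left-out arrays, where Rpl15, Rpl7l1 and Rps4l were each called in a single fit. It was 3 without Treg HCME array 3, CD8 LME array 3, CD8 HCME array 1 or CD8 HCME array 3.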
